A study of Rattus norvegicus with 6 samples.

Results

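Heat shock proteins and co-chaperones were followed as 37 genes of the 30560 listed in the single-nucleus count matrices, each found by its symbol. The members were chosen by name and family, with earlier results of these data known. Brains came from male wild-type Wistar rats, 12 weeks old, at 48 h after permanent occlusion of the right middle cerebral artery with an intraluminal filament (MCAO) or after Sham surgery. Each library pooled the nuclei of several animals, so a library is not 1 rat. The left and right hemispheres of 4 Sham-operated rats gave the libraries Sham L and Sham R. The hemispheres of 3 rats with moderate infarctions gave mMCAO contra (left, opposite the lesion) and mMCAO ipsi (right, on the lesion side), and those of 4 rats with severe infarctions gave sMCAO contra and sMCAO ipsi. The groups compared were Sham, MCAO contra and MCAO ipsi, each of 2 libraries. Both Sham libraries come from 1 set of rats, while the MCAO libraries of a group come from different rats and differ in infarct severity, so a p-value here measures only the spread between such libraries.

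The 6 libraries held 73826 barcodes, of which 73649 passed the filters on genes, UMIs (unique molecular identifiers, 1 per captured RNA molecule) and mitochondrial reads. Library totals ran from 33012945 to 52513380 UMIs. Marker genes outside the members placed 48009 nuclei (65.2%) in 8 classes, named "-like" after those markers: 6841 oligodendrocyte-like, 1851 oligodendrocyte precursor (OPC)-like, 1641 astrocyte-like, 636 vascular-like, 2908 myeloid-like, 18201 glutamatergic neuron-like, 6205 medium spiny neuron-like and 9726 other GABAergic neuron-like nuclei. Of these, 5.20% of other GABAergic, 13.7% of medium spiny and 14.1% of glutamatergic neuron-like nuclei lay within 1.2-fold of a gate threshold, against 0.314% to 1.78% in the other classes. Pairs of libraries shared 118 to 280 barcodes, and 3015 barcodes (4.27%) occurred in more than 1 library. The sMCAO ipsi library stood apart, with a median of 8743 UMIs per glutamatergic neuron-like nucleus against 3066 to 4960 in the others, and 0.213% of all UMIs from mitochondrial genes against 0.0476% to 0.0796%. The 2 Sham libraries held only 9 and 7 myeloid-like nuclei, so no member was compared with Sham in that class and its levels are those of the 4 MCAO libraries. Below, levels are the raw UMIs of a member summed over a class of a library, scaled to CPM (counts per 1000000 UMIs of that sum), and series of 6 values follow the order Sham L, Sham R, mMCAO contra, sMCAO contra, mMCAO ipsi and sMCAO ipsi.

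Heat shock proteins hold unfolded proteins, help them refold or pass them on for degradation. Hsp70 proteins work with J-domain partners and nucleotide exchange factors, Hsp90 proteins take over partly folded clients through co-chaperones, and small heat shock proteins bind unfolding proteins without using ATP. In the cytosol their transcription is raised by heat shock factors such as Hsf1, whereas chaperones of the endoplasmic reticulum are raised by the unfolded protein response. Both responses are well known in ischemic brain.

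The sequence before the start sites shows which members hold elements known from these responses. RefSeq promoters of the rat build GRCr8 were matched to 31 of the 37 members. Not matched were Hspa12a, Hsp90aa1, Cryab, Dnaja2, Dnajb4 and Hsf1. In the 250 bases upstream of the start, GAANNTTC, 2 inverted units of the heat shock element, occurred in 12 members (Bag3, Dnaja1, Dnajb1, Dnajb6, Fkbp4, Hspa8, Hspa9, Hspb1, Hspb8, Hspd1, Hspe1 and Hsph1) and in 7.23% of all 33469 promoter windows. With 3 units, GAANNTTCNNGAA, which contains the first motif, it occurred in Hspa8, Hspd1, Hspe1 and Hsph1 and in 0.663% of all windows. Hspd1 and Hspe1 lie head to head and their windows overlap, so both hold the same stretch. The endoplasmic reticulum stress element, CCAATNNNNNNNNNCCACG, occurred in Hspa5, Hsp90b1 and Dnajc3 and in 0.0657% of all windows. All 3 motifs were searched on both strands, and a match describes the sequence only.

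The 7 stretches that follow are shown because the members behind them carry the results that follow; they were chosen after those values were seen. Each ends at the base before the start site and reads 5′ to 3′ on the strand of the gene, with motif matches in capitals. Hspa5 and Hsp90b1 are 2 endoplasmic reticulum chaperones with the stress element, once at -43 to -25 in Hspa5, and at -176 to -158 and -72 to -54 in Hsp90b1.
Hspa5 (chr3:38452766-38453015, + strand): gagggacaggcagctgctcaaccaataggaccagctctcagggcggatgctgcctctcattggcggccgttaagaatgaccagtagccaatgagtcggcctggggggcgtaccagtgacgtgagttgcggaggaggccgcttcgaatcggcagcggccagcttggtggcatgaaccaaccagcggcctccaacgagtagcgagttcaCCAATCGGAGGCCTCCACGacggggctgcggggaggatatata
Hsp90b1 (chr7:23012294-23012543, - strand): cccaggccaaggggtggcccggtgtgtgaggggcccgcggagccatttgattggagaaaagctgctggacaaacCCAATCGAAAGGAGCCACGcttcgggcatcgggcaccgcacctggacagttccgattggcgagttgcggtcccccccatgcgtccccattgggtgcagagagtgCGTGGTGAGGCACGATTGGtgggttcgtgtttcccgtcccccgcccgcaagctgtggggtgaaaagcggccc
Hspb1, Hsph1 and Hspa8 hold the heat shock element, at -129 to -122 and -109 to -102 in Hspb1. With 3 units it lies at -36 to -24 in Hsph1 and -55 to -43 in Hspa8. A second match of 3 units in Hspa8, at -213 to -201, lies upstream of the stretch shown.
Hspb1 (chr12:26432302-26432451, - strand): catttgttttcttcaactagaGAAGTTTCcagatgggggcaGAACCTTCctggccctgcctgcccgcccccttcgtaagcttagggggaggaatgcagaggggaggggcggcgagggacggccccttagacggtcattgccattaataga
Hsph1 (chr12:10427268-10427367, + strand): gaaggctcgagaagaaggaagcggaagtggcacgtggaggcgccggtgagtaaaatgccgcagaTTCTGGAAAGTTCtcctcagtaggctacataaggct
Hspa8 (chr8:50080414-50080513, + strand): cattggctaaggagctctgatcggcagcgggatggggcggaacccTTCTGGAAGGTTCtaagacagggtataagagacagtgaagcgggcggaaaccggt
No motif of the 3 matched in the windows of Dnajc6 and Ubb, of which the last 100 bases are shown. Ubb has 2 start sites in the table, and the stretch before the second one listed is given.
Dnajc6 (chr5:121290099-121290198, + strand): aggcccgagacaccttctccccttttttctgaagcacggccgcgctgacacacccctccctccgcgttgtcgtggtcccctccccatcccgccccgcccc
Ubb (chr10:47746823-47746922, + strand): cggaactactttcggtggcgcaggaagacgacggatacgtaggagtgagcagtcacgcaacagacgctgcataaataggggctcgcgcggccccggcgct

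Before any comparison, the members differed widely between classes, and vascular-like nuclei held most of their transcripts per UMI. The 37 members summed to between 3234 and 3845 CPM in the 6 vascular-like sums, to between 1923 and 3449 CPM in oligodendrocyte-like nuclei and to between 1868 and 2462 CPM in the 4 myeloid-like sums from MCAO. In OPC-like nuclei the sums were 1270 to 1864 CPM, in astrocyte-like nuclei 1303 to 2081, and in the 3 neuron-like classes 1381 to 1803. The median over libraries was highest in vascular-like nuclei for 20 of the 37 members, in oligodendrocyte-like nuclei for 6, in myeloid-like nuclei for 5, in glutamatergic neuron-like nuclei for 3 and in OPC-like, astrocyte-like and medium spiny neuron-like nuclei for 1 each. Only 7 members had a leading class whose libraries did not overlap those of the next class by median, and these orders are given as descriptions. The same counts over all genes are not given, and whether the vascular-like lead is particular to the members was not tested. Class sums held 1.02% to 1.38% mitochondrial UMIs in vascular-like nuclei, and its part in the vascular levels was not tested.

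Among the Hsp70 proteins, Hspa8, the constitutive cytosolic form, had medians of 131 CPM in vascular-like, 57.5 in myeloid-like and 46.9 in oligodendrocyte-like nuclei and 12.2 to 18.0 CPM in the neuron-like classes. Hspa12a, a distant Hsp70 relative, was highest in the neuron-like classes. Its median was 195 CPM in glutamatergic, 137 in other GABAergic and 145 in medium spiny neuron-like nuclei and 49.4 CPM or less elsewhere, and the neuron-like ranges overlapped one another. Hspa4l, an Hsp110-type exchange factor, lay at 64.1 to 109 CPM across the neuron-like libraries and at no more than 43.8 CPM in any vascular-like or MCAO myeloid-like sum. Hsph1, the Hsp110 exchange factor, had its highest median, 95.7 CPM, in oligodendrocyte-like nuclei, and all neighbours in this order overlapped.

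The cytosolic Hsp90 genes were highest in vascular-like nuclei. Hsp90ab1, the constitutive form, had 492 to 796 CPM there against 86.3 to 198 CPM in myeloid-like nuclei, without overlap. Hsp90aa1, the inducible form, had 165 to 342 CPM there and 69.6 to 324 CPM in oligodendrocyte-like nuclei, which overlapped. Ubb, a polyubiquitin gene whose product tags proteins for the proteasome, also led in vascular-like nuclei with myeloid-like nuclei next, at 161 to 362 CPM in vascular-like and 40.1 to 89.0 CPM in myeloid-like nuclei.

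The endoplasmic reticulum chaperones Hspa5 (BiP) and Hsp90b1 (GRP94) had their highest medians in vascular-like nuclei, at 143 and 182 CPM, and their ranges there overlapped those of myeloid-like nuclei. Dnajc3, a J-domain partner of Hspa5, also led there with a median of 82.3 CPM, and Dnajb9, another partner, with 39.5 CPM. The mitochondrial chaperone Hspa9 had class medians from 38.7 to 82.4 CPM. Hspd1 and Hspe1, the 2 parts of the mitochondrial chaperonin, had medians of 44.1 and 44.8 CPM in vascular-like nuclei and of 23.3 and 7.67 CPM or less in the neuron-like classes.

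Each small heat shock protein had its higher medians in 1 or 2 classes. Hspb1 had a median of 121 CPM in vascular-like nuclei, with 1 library at 0 and a highest value of 146 CPM, and medians of 5.10 CPM or less in all other classes. Cryab, the lens protein alpha B crystallin that oligodendrocytes also make, had 28.3 to 100 CPM in oligodendrocyte-like nuclei and 0 to 15.3 CPM in every other class. Hspb8, a partner of Bag3, had medians of 28.7 CPM in vascular-like and 14.0 CPM in astrocyte-like nuclei and below 1 CPM elsewhere.

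Among the J-domain proteins, Dnajb2, known from neurons, lay at 142 to 218 CPM in oligodendrocyte-like nuclei and at no more than 59.3 CPM in any library of any other class. Dnajc6 (auxilin), which uncoats clathrin vesicles at synapses, lay at 401 to 522 CPM in glutamatergic and 308 to 333 CPM in other GABAergic neuron-like nuclei, and still at 184 to 286 CPM in oligodendrocyte-like nuclei. Dnajb6 was highest in myeloid-like nuclei, at 177 to 197 CPM. That range lay above oligodendrocyte-like nuclei (112 to 158 CPM), the next class by median, but overlapped vascular-like nuclei, which reached 181 CPM. Dnaja1 lay at 118 to 337 CPM in vascular-like and 68.7 to 89.0 CPM in myeloid-like nuclei, and Dnajc5, the cysteine string protein of synaptic vesicles, reached medians of 65.1 to 93.9 CPM in 7 classes and 181 CPM in myeloid-like nuclei. Hsf1 and Hsf2, the heat shock transcription factors, were detected in every class, with highest medians of 51.2 CPM (Hsf1, myeloid-like) and 89.8 CPM (Hsf2, OPC-like).

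**Figure D1:**
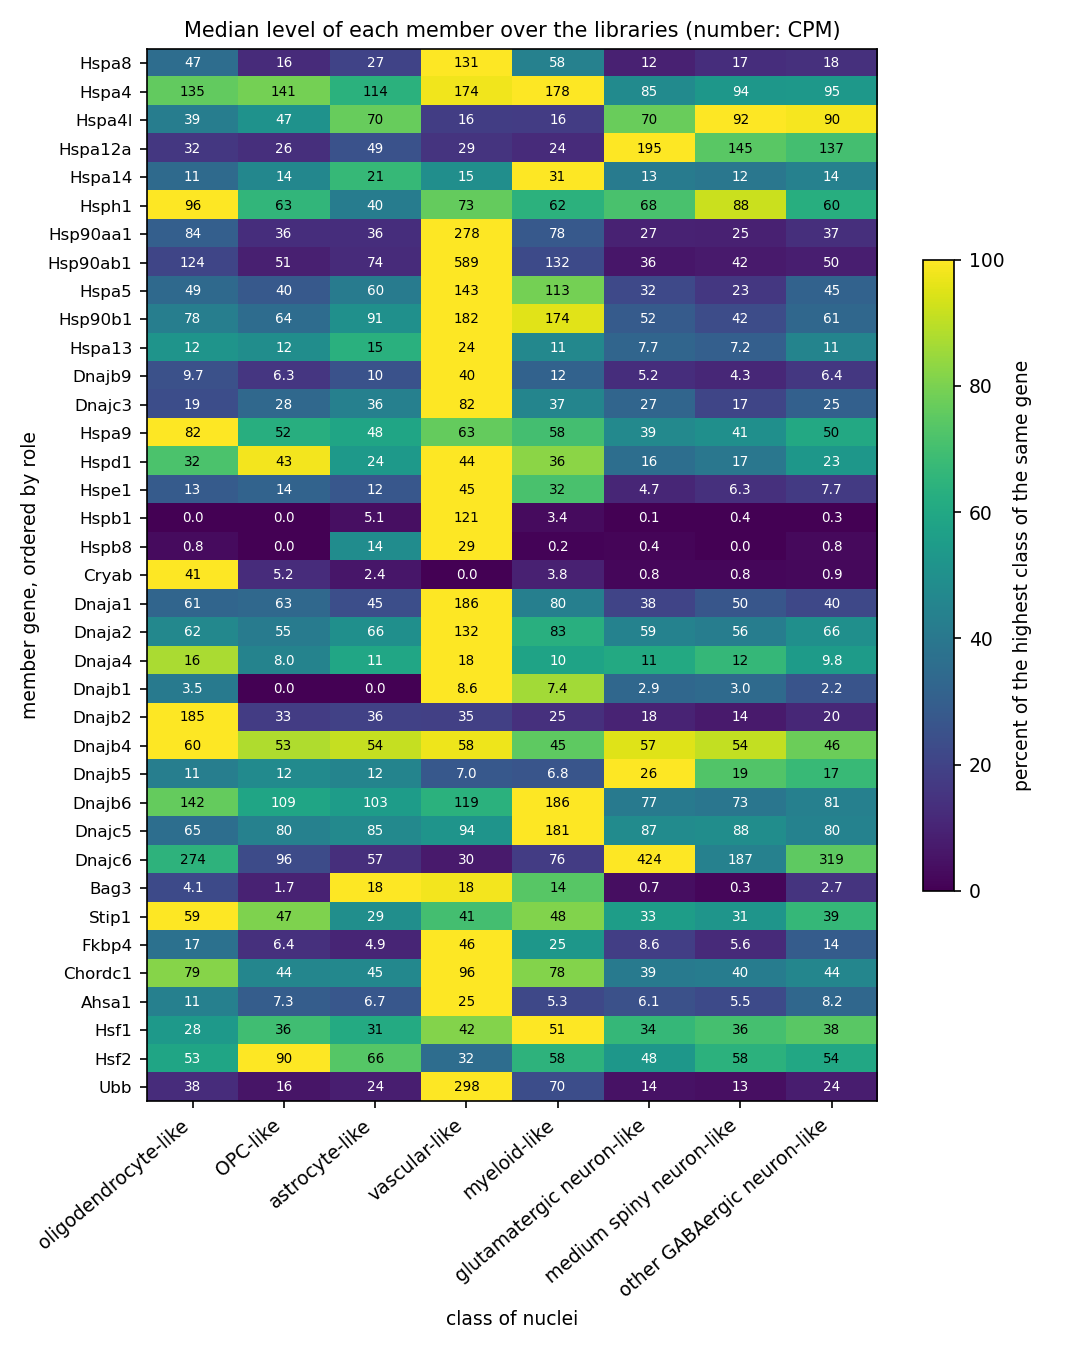
Level of the 37 members in the 8 marker-defined classes. Rows are members by role and columns are classes; the number in a cell is the median CPM over the libraries (6, or 4 for myeloid-like nuclei) and its colour is that median as a percent of the same member's highest class. Vascular-like nuclei hold the brightest cell, that of the highest class, for 20 members, and Cryab and Dnajb2 stand out in oligodendrocyte-like nuclei.

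MCAO ipsi was then compared with Sham, the contrast of infarcted with uninjured hemispheres. Of 194 pairs of member and class that had enough counts, 14 passed the test, 9 higher and 5 lower in MCAO ipsi. A call needed an adjusted p below 0.05 from the quasi-likelihood test of edgeR (Benjamini-Hochberg, over all genes of the class) and a log2 fold change of 0.6 or more in either direction. In astrocyte-like nuclei 4 of 22 members tested were called, with 15.2% of all genes called, and in glutamatergic neuron-like nuclei 4 of 36, with 6.0% of all genes. Other GABAergic neuron-like nuclei gave 3 of 34 (1.04% of all genes), and oligodendrocyte-like nuclei gave 1 of 33 (3.93%), OPC-like nuclei 1 of 24 (11.5%) and medium spiny neuron-like nuclei 1 of 33 (4.18%). In vascular-like nuclei none of 12 was called (7.41% of all genes were). There 3 members had an unadjusted p under 0.05, a limit for which the share of all genes is not given, and DESeq2 called none. The share of members called was above that of all genes in astrocyte-like, glutamatergic and other GABAergic neuron-like nuclei and below it in the other 4 classes, on 0 to 4 calls each. In astrocyte-like nuclei Hspb1 and Bag3 had enough counts for the test only through the MCAO ipsi libraries, where they were high. Hspa5 had enough counts outside MCAO ipsi in sMCAO contra alone, so it too was tested through MCAO ipsi. The higher share in that class is thus no support for a response of the members. The median log2 fold change of the members was 0.32 in oligodendrocyte-like, 0.21 in OPC-like, 0.14 in astrocyte-like, 0.12 in vascular-like and 0.07 to 0.11 in the neuron-like classes, while that of all genes was 0.01 to 0.03.

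These counts rested on both Sham libraries. Without Sham L, 1 call was made in OPC-like nuclei and none in the other 6 classes, and without Sham R, 1 in astrocyte-like and 1 in medium spiny neuron-like nuclei and none in the others. Without mMCAO ipsi, more members were called in every class than in the full fit. The share of all genes called is not given for any fit with a library left out. No loss or gain particular to the members is thus shown. A group left with 1 library is assumed in these fits to vary like the others. DESeq2 called 1, 4 and 2 members in astrocyte-like, glutamatergic and other GABAergic neuron-like nuclei, and its share of all genes is not given either. In class sums, a change in the make-up of a class and a change in RNA per nucleus cannot be told apart.

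**Figure D2:**
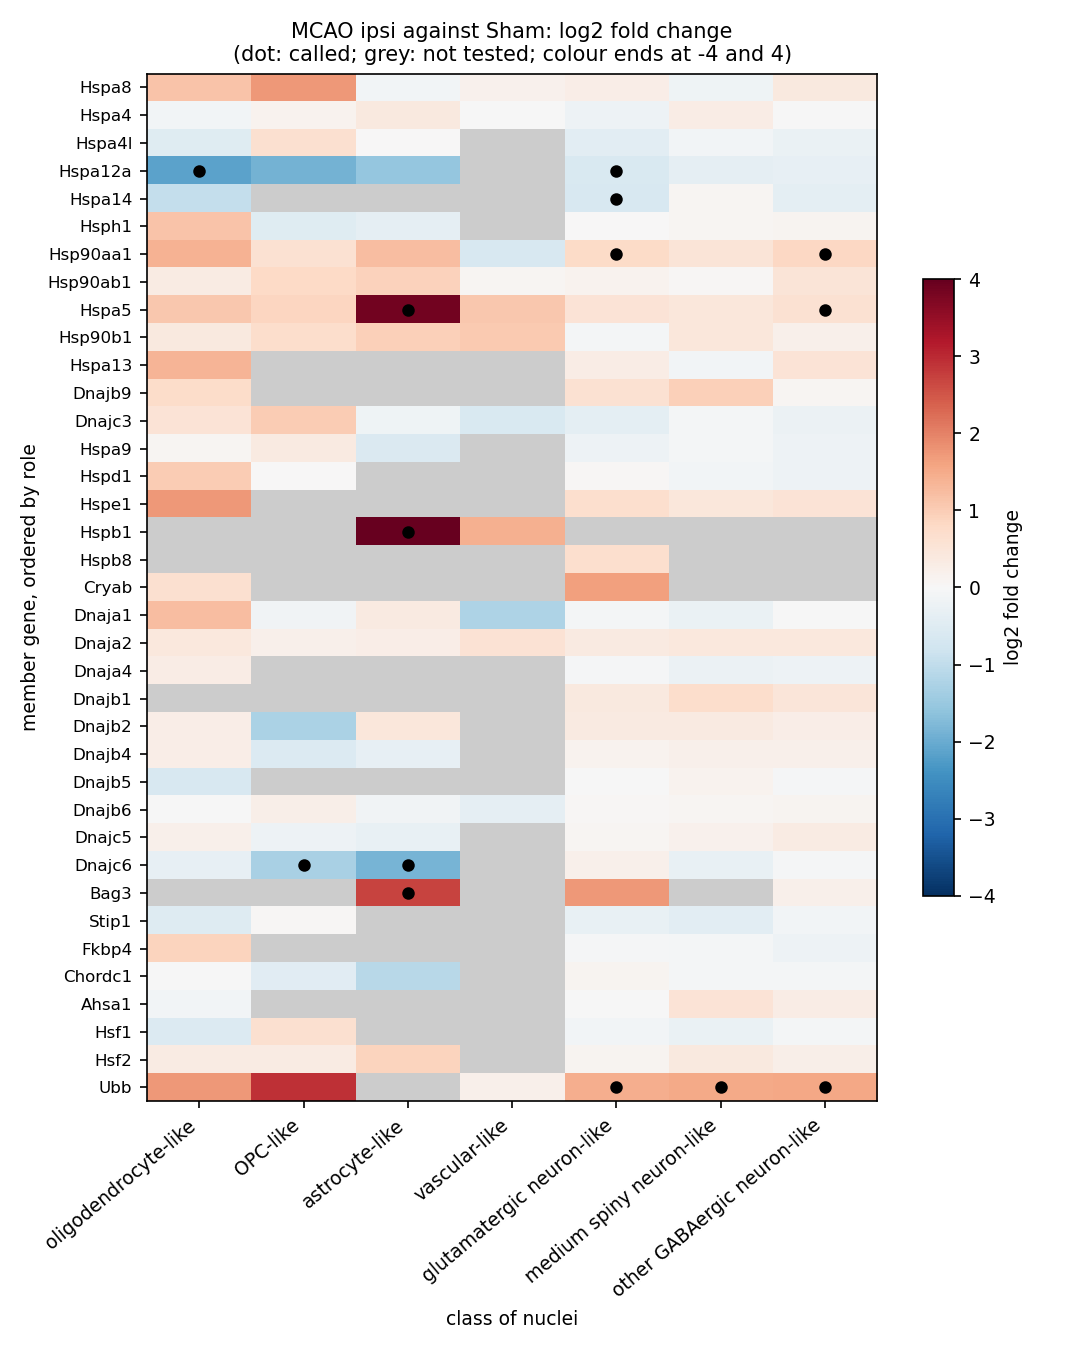
Log2 fold change of the 37 members in MCAO ipsi against Sham in 7 classes. Colour gives the fold change, with the scale ending at -4 and 4; a dot marks the 14 calls and grey the pairs that were not tested. The calls are spread over 6 classes, and Ubb was called in all 3 neuron-like classes.

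In astrocyte-like nuclei the endoplasmic reticulum chaperone Hspa5 rose, with the lowest adjusted p of the class's 4 members called. Its levels were 7.57, 11.3, 27.2, 91.7, 120 and 153 CPM, from 1, 1, 9, 18, 65 and 182 UMIs. The Sham libraries were lowest and the MCAO ipsi libraries highest, and none of the 3 groups overlapped. The log2 fold change against Sham was 3.86 ± 0.74 (SE, adjusted p = 0.00346, edgeR), or 14.5-fold, and it was 3.42 ± 0.71 larger than in glutamatergic neuron-like nuclei (adjusted p = 9.34e-05 for that difference, edgeR). The Sham values are 1 UMI each. Without Sham L the adjusted p was 0.0760, whereas DESeq2 gave 3.90 with an adjusted p of 0.0249.

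Hspa5 was also called in other GABAergic neuron-like nuclei, at 31.5, 35.2, 42.9, 50.0, 47.0 and 59.0 CPM. The MCAO ipsi libraries lay above Sham, but overlapped MCAO contra. The log2 fold change against Sham was 0.62 ± 0.13 (adjusted p = 0.0436, edgeR), and without Sham L or Sham R the adjusted p was 0.440 or 0.168. In glutamatergic neuron-like nuclei Hspa5 lay at 23.0, 26.1, 30.2, 36.4, 33.2 and 44.5 CPM, with a log2 fold change of 0.54 ± 0.14 (adjusted p = 0.0403, edgeR), which was below the size threshold. In the remaining classes tested its fold change was above 0, from 0.46 to 1.09 on the log2 scale, and was not called. Hsp90b1 in astrocyte-like nuclei had 60.6, 90.6, 33.3, 91.7, 104 and 177 CPM. Both MCAO ipsi libraries lay above all others, but the difference from Sham, 0.95 ± 0.47, was not called (adjusted p = 0.219, edgeR).

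Hspb1, which binds unfolding proteins and actin, was the second astrocyte-like rise. It was at 0 UMIs in Sham L, Sham R and mMCAO contra, at 2 UMIs in sMCAO contra, and at 36 and 241 UMIs in mMCAO ipsi and sMCAO ipsi, or 66.6 and 203 CPM. The MCAO ipsi libraries thus lay far above all others. The level in MCAO ipsi was at least 11.8-fold higher than a Sham level of 3 UMIs over the group, the limit that a count of 0 allows (adjusted p = 0.00752, edgeR). It was not called by DESeq2 (adjusted p = 0.202), nor without Sham L (0.0908) or Sham R (0.0521).

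In nuclei thinned to 1000 UMIs each, Hspb1 was found in 0 of 20 and 0 of 11 astrocyte-like nuclei of the Sham libraries, too few to show a difference (upper exact 95% limits 16.8% and 28.5%), in 0 of 155 in mMCAO contra and 1 of 63 nuclei in sMCAO contra. In mMCAO ipsi it was found in 14 of 271 (5.17%; exact 95% interval 2.85 to 8.52) and in sMCAO ipsi in 50 of 410 (12.2%; 9.19 to 15.8). Fitted on nuclei of at least 1000 UMIs, the Hspb1 rise was called against MCAO contra (adjusted p = 0.00869, edgeR). Sham R, with 11 such nuclei, fell below the 20 required. That fit thus held Sham L as the only Sham library and cannot decide the comparison with Sham. Unthinned, 6.99% and 22.8% of astrocyte-like nuclei of the 2 MCAO ipsi libraries had an Hspb1 UMI, at median depths of 1276 and 2323 UMIs. In glutamatergic neuron-like nuclei of the same libraries, 2 of 3431 and 1 of 933 thinned nuclei had one. Free RNA was not removed, and intervals cover counting error only. Hspb1 was not tested in the oligodendrocyte-like or neuron-like classes for want of counts. Its levels were 0, 0, 0, 0, 5.65 and 51.2 CPM in oligodendrocyte-like nuclei, at least 12.9-fold higher in MCAO ipsi than the Sham floor, and 0, 0, 0.0498, 0.0806, 0.678 and 3.19 CPM in glutamatergic neuron-like nuclei, at least 14.3-fold higher.

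Bag3, the co-chaperone that hands clients of Hsp70 and small heat shock proteins to autophagy, rose in astrocyte-like nuclei as well. Its levels were 15.1, 0, 21.2, 15.3, 42.5 and 75.0 CPM, and the MCAO ipsi libraries lay above all others. The log2 fold change against Sham was 2.70 ± 0.82 (adjusted p = 0.0402, edgeR), and it was lost without either Sham library (adjusted p = 0.0965 and 0.220) or either MCAO contra library (0.0639 and 0.0561). Astrocyte-like sums also differed in other ways, since 12.1% of their nuclei in sMCAO ipsi and 5.96% in mMCAO ipsi had over 1% mitochondrial UMIs, against 0% to 1.91% in the other libraries. In nuclei of at most 1% mitochondrial UMIs, an alternative chosen after seeing the data, 4 members were called in this class. With a stricter gate, in nuclei low in neuron markers or in nuclei of at least 1000 UMIs, none was.

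**Figure D3:**
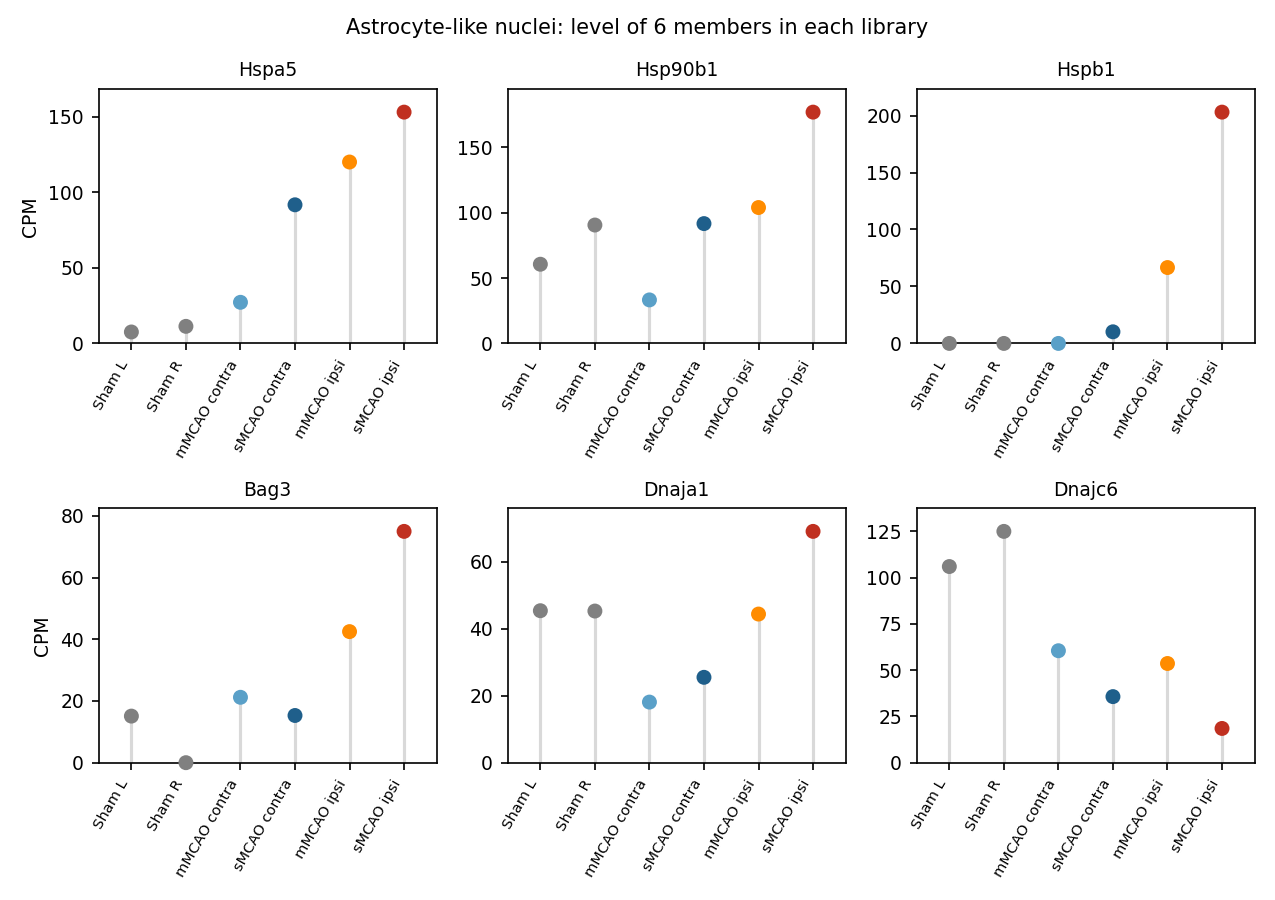
Levels of 6 members in astrocyte-like nuclei of each library, in CPM on linear axes that start at 0; each point is 1 library. Hspa5, Hspb1 and Bag3 are highest in both MCAO ipsi libraries, and Dnajc6 is highest in both Sham libraries.

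Ubb rose in all 3 neuron-like classes, and Hsp90aa1 in glutamatergic and other GABAergic neuron-like ones. In glutamatergic neuron-like nuclei Ubb had 6.48, 7.47, 12.8, 17.0, 15.9 and 26.3 CPM. All MCAO libraries lay above both Sham libraries, and MCAO contra and MCAO ipsi overlapped. The log2 fold change of MCAO ipsi against Sham was 1.46 ± 0.23 (adjusted p = 0.0104, edgeR), or 2.75-fold. In medium spiny neuron-like nuclei Ubb had 5.65, 7.61, 11.7, 13.9, 17.4 and 21.9 CPM, with no overlap between any 2 of the groups, and a log2 fold change of 1.53 ± 0.26 (adjusted p = 0.00297, edgeR). In other GABAergic neuron-like nuclei it had 9.86, 11.3, 21.7, 29.7, 25.2 and 38.9 CPM, again with all MCAO libraries above Sham, and a log2 fold change of 1.54 ± 0.23 (adjusted p = 0.0152, edgeR). DESeq2 also called Ubb in all 3 classes. Without Sham L the adjusted p was 0.198, 0.0616 and 0.317 in the 3 classes, and without Sham R it was 0.0898, 0.0121 and 0.112.

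Hsp90aa1 also lay higher in the MCAO libraries. In glutamatergic neuron-like nuclei it had 17.7, 17.9, 24.7, 29.7, 29.0 and 35.8 CPM, against 25.2, 23.3, 36.6, 49.8, 37.7 and 53.0 CPM for other GABAergic neuron-like nuclei. In both classes all MCAO libraries lay above Sham, while MCAO contra and MCAO ipsi overlapped. The log2 fold changes against Sham were 0.75 ± 0.12 (adjusted p = 0.0109, edgeR) and 0.83 ± 0.18 (adjusted p = 0.0481, edgeR). Without Sham L or Sham R, Hsp90aa1 was not called in either class, with adjusted p from 0.105 to 0.407. In medium spiny neuron-like nuclei it had 20.4, 17.0, 24.4, 28.2, 25.8 and 30.1 CPM, and its log2 fold change of 0.52 ± 0.19 was not called (adjusted p = 0.121, edgeR).

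Ubb and Hsp90aa1 were not called in oligodendrocyte-like or OPC-like nuclei, nor Hsp90aa1 in astrocyte-like nuclei, where Ubb had too few counts for the test. In oligodendrocyte-like nuclei Ubb had 23.1, 38.7, 22.5, 36.5, 39.6 and 136 CPM, of which sMCAO ipsi alone stood out, with a log2 fold change of 1.72 ± 0.62 against Sham (adjusted p = 0.150, edgeR). In OPC-like nuclei it had 5.98, 0, 15.3, 29.5, 17.2 and 41.4 CPM, with 2.92 ± 1.13 (adjusted p = 0.108, edgeR). No difference in the Ubb or Hsp90aa1 change between glutamatergic neuron-like nuclei and oligodendrocyte-like, OPC-like or astrocyte-like nuclei passed the test described below.

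**Figure D4:**
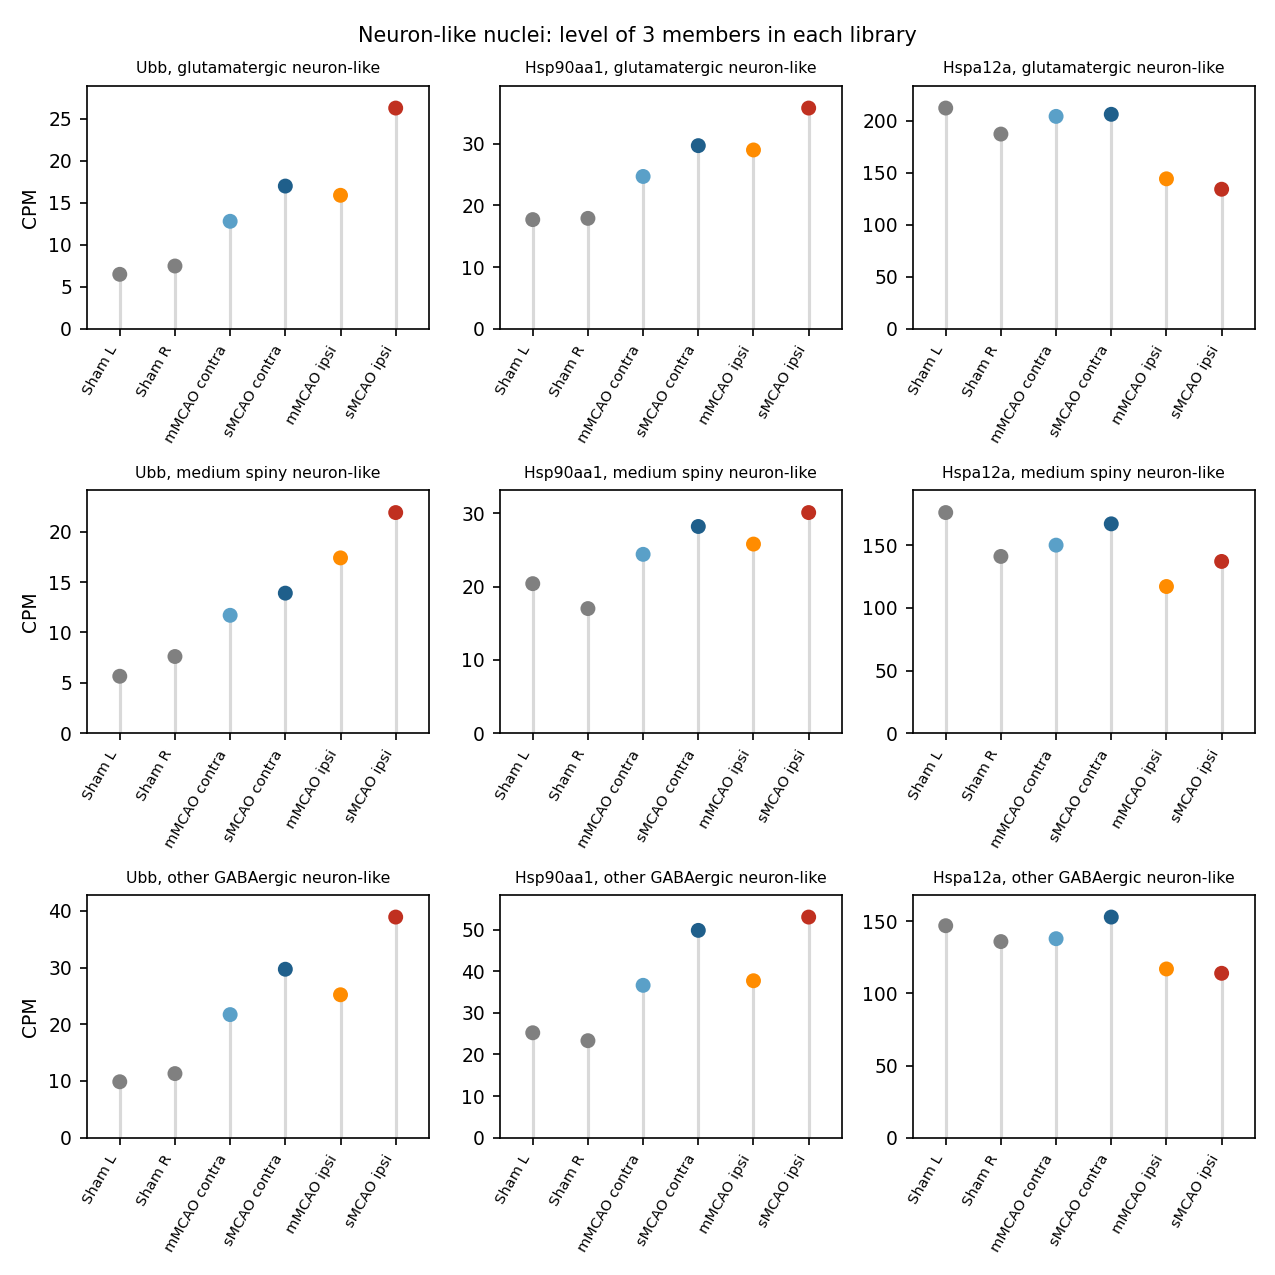
Levels of Ubb, Hsp90aa1 and Hspa12a in the 3 neuron-like classes of each library, in CPM on linear axes that start at 0; each point is 1 library. Ubb and Hsp90aa1 are above Sham in all 4 MCAO libraries of every class, and Hspa12a is lowest in the MCAO ipsi libraries.

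Of the 14 calls, 5 were lower in MCAO ipsi, all of Hspa12a, Hspa14 or Dnajc6. Hspa12a fell in glutamatergic neuron-like nuclei, where it had 212, 187, 204, 206, 144 and 134 CPM. The MCAO ipsi libraries lay below the other 4, with a log2 fold change of -0.62 ± 0.10 (adjusted p = 0.00991, edgeR). In medium spiny neuron-like nuclei it had 176, 141, 150, 167, 117 and 137 CPM. Other GABAergic neuron-like nuclei had 147, 136, 138, 153, 117 and 114 CPM. Both MCAO ipsi libraries were again the lowest in each class, but the differences, -0.37 ± 0.12 and -0.34 ± 0.09, were not called (adjusted p = 0.0910 and 0.0790, edgeR). In glutamatergic neuron-like nuclei the call was lost without Sham L (adjusted p = 0.176) or Sham R (0.0615), and without sMCAO ipsi its size of -0.53 was below the threshold.

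Hspa12a fell in oligodendrocyte-like nuclei too, from 41.4, 34.8, 28.6 and 50.0 CPM in Sham and MCAO contra to 10.2 and 8.06 CPM in mMCAO ipsi and sMCAO ipsi. The MCAO ipsi libraries were lowest, without overlap, and the log2 fold change was -2.13 ± 0.42 (adjusted p = 0.0361, edgeR). It was the only member called in this class. The call was lost without Sham L (adjusted p = 0.311), Sham R (0.235), mMCAO contra (0.0855) or sMCAO contra (0.0841). Pan-neuron marker genes were also lowest in MCAO ipsi, at 1845, 1791, 1160, 1289, 981 and 283 CPM in the same nuclei. The markers were below Sham in both MCAO contra libraries, while Hspa12a was below Sham in mMCAO contra and above it in sMCAO contra. In nuclei low in those markers the Hspa12a fold change was -1.98 with an adjusted p of 0.241 (edgeR). The part of these markers in the Hspa12a fall was not tested further.

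Dnajc6 fell in OPC-like and astrocyte-like nuclei and was not called in the other classes. In OPC-like nuclei it had 150, 211, 85.3, 103, 89.4 and 65.7 CPM, with Sham above all MCAO libraries, and a log2 fold change of -1.31 ± 0.29 (adjusted p = 0.00574, edgeR). In astrocyte-like nuclei it had 106, 125, 60.5, 35.7, 53.6 and 18.5 CPM, again with Sham above all MCAO libraries, and a log2 fold change of -1.85 ± 0.52 (adjusted p = 0.0278, edgeR). In glutamatergic neuron-like nuclei it had 428, 420, 404, 401, 522 and 521 CPM, highest in MCAO ipsi, with 0.19 ± 0.08 (adjusted p = 0.131, edgeR). The glial and glutamatergic changes differed, by -1.38 ± 0.30 in OPC-like nuclei (adjusted p = 0.000201, edgeR) and by -1.97 ± 0.42 in astrocyte-like nuclei (adjusted p = 0.000135, edgeR).

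Neuron marker genes fell alongside Dnajc6 in both classes. They had 2435, 2290, 1904, 1896, 1476 and 979 CPM in OPC-like and 2378, 1903, 1593, 1702, 1154 and 538 CPM in astrocyte-like nuclei. In nuclei low in neuron markers the Dnajc6 fold changes were -1.11 (adjusted p = 0.294) and -1.90 (adjusted p = 0.230), and their part in the falls was not tested further. The OPC-like call was lost without Sham R, with DESeq2, with the stricter gate and in nuclei low in neuron markers. The astrocyte-like call was lost without Sham L, Sham R, mMCAO contra or sMCAO ipsi. It was also lost with DESeq2, with only the 2 groups compared and with the stricter gate. In nuclei low in neuron markers it was lost as well. The fit on nuclei of at least 1000 UMIs held Sham L as the only Sham library, so it cannot decide this.

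Hspa14, an Hsp70 relative that works at the ribosome, fell in glutamatergic neuron-like nuclei, at 13.8, 14.1, 13.8, 12.0, 9.77 and 9.09 CPM. Both MCAO ipsi libraries were lowest, and the log2 fold change was -0.65 ± 0.15 (adjusted p = 0.0290, edgeR). The call was lost without Sham L (0.238), Sham R (0.150), mMCAO contra (0.0612) or sMCAO contra (0.0578), and without sMCAO ipsi its size of -0.58 was below the threshold. In the same class Hspa4l had 83.3, 80.8, 70.0, 71.0, 68.2 and 64.1 CPM, with the MCAO ipsi libraries lowest. Its log2 fold change of -0.41 ± 0.08 had an adjusted p of 0.0216 (edgeR) but was below the size threshold, as was that of Dnaja2, the J-domain partner of Hspa8, at 0.37 ± 0.09 (adjusted p = 0.0328, edgeR).

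Whether a change of a member differed between cell classes was tested against glutamatergic neuron-like nuclei, with 1 model over both classes and an adjusted p under 0.05 alone. Hspa5 and Dnajc6 in astrocyte-like nuclei were called out of 37 members tested, where 5.71% of all genes were called, and Dnajc6 in OPC-like nuclei out of 36 (5.20% of all genes). In oligodendrocyte-like nuclei none of 37 members was called (4.68% of all genes were). The lowest adjusted p there were 0.0540 for Hspa12a, at -1.40 ± 0.39, and 0.0797 for Dnaja1, at 1.24 ± 0.38 (edgeR). DESeq2 was not run for these differences. With the stricter gate none of the 3 was called.

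MCAO ipsi was next compared with MCAO contra, both hemispheres of the same rats, and the calls fell in OPC-like and astrocyte-like nuclei alone. Of 222 pairs of member and class tested, 11 were called, 10 higher and 1 lower in MCAO ipsi, with 3.38% of all genes called over the 8 classes. OPC-like nuclei gave 6 of 24 members (14.3% of all genes) and astrocyte-like nuclei 5 of 22 (12.0%). Hspa8 in OPC-like nuclei and Hspb1 and Bag3 in astrocyte-like nuclei had enough counts for the test only through the MCAO ipsi libraries. Astrocyte-like Hspa5 had enough counts outside MCAO ipsi in sMCAO contra alone, so it too was tested through MCAO ipsi. These shares are thus no support for a response of the members. No member was called in the other classes, where 3.35% (glutamatergic), 2.35% (medium spiny), 0.438% (vascular-like), 0.0774% (other GABAergic), 0.0216% (oligodendrocyte-like) and 0% (myeloid-like) of all genes were. With an unadjusted p under 0.05 there were 11 members in oligodendrocyte-like, 6 each in glutamatergic and medium spiny, 5 in other GABAergic, 2 in vascular-like and 2 in myeloid-like nuclei. For this unadjusted limit the share of all genes is not given, and no excess of members is shown. DESeq2 called 2 in oligodendrocyte-like and 1 in glutamatergic neuron-like nuclei, and none of the 11. Without mMCAO contra no member was called in any class. Without mMCAO ipsi more pairs were called than in the full fit. The share of all genes called is not given for DESeq2 or for these fits, so no change particular to the members is shown.

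In OPC-like nuclei 5 of 24 tested members rose and 1 fell. By role these were 2 of 3 of the endoplasmic reticulum, 1 of 2 Hsp90 and 3 of 5 cytosolic Hsp70 and Hsp110 members (2 up, 1 down). None of 7 J-domain members was called (median log2 fold change -0.35). Of all genes 14.3% were called in this class, and a difference between roles was not tested. Hspa5 had 41.9, 38.3, 19.7, 25.8, 63.6 and 90.9 CPM, with no overlap between groups, and a log2 fold change against MCAO contra of 1.70 ± 0.36 (adjusted p = 0.00304, edgeR). Hsp90b1 had 83.7, 38.3, 45.9, 51.6, 77.4 and 142 CPM, with MCAO ipsi above MCAO contra but overlapping Sham, and 1.11 ± 0.32 (adjusted p = 0.0255, edgeR). Hspa8, the constitutive Hsp70, had 5.98, 19.2, 13.1, 7.38, 31.0 and 45.9 CPM, highest in both MCAO ipsi libraries, and 1.71 ± 0.51 (adjusted p = 0.0295, edgeR). Hsp90ab1 had 59.8, 28.7, 41.5, 36.9, 70.5 and 104 CPM and Hspa4l 53.8, 38.3, 39.4, 36.9, 74.0 and 84.6 CPM. Both were highest in the MCAO ipsi libraries, with log2 fold changes of 1.04 ± 0.32 (adjusted p = 0.0316, edgeR) and 0.93 ± 0.30 (adjusted p = 0.0417, edgeR). Hspa12a was the member that fell, with 41.9, 19.2, 43.7, 33.2, 8.60 and 9.90 CPM, lowest in MCAO ipsi, and -2.16 ± 0.49 (adjusted p = 0.00525, edgeR). Without mMCAO contra the adjusted p was 0.0989 for Hspa5 and 0.319 for Hspa12a.

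In astrocyte-like nuclei the same comparison called Hspb1, Hspa5, Dnaja1, Bag3 and Hsp90b1, all higher in MCAO ipsi. Their log2 fold changes against MCAO contra were 5.07 ± 0.88 (adjusted p = 0.00252), 1.34 ± 0.39 (0.0391), 1.45 ± 0.43 (0.0439), 1.66 ± 0.50 (0.0458) and 1.30 ± 0.40 (0.0490), by edgeR. Dnaja1, a J-domain partner of Hspa8, had 45.4, 45.3, 18.1, 25.5, 44.4 and 69.1 CPM. MCAO contra was lowest, while Sham and MCAO ipsi overlapped, and its fold change against Sham was 0.35 ± 0.48 (adjusted p = 0.709, edgeR). Without mMCAO contra, Hspa5 had 0.58 (adjusted p = 0.472) and Hspb1 3.74 (0.0893). In nuclei of at most 1% mitochondrial UMIs Hspa5 was not called, at 1.14 (adjusted p = 0.0709).

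The uninjured hemisphere after MCAO was compared with Sham last. No member was called in the 194 pairs tested, against 0.0791% of all genes, while DESeq2 called 1 in glutamatergic and 1 in other GABAergic neuron-like nuclei. An unadjusted p under 0.05 was reached by 8 members in glutamatergic, 7 in other GABAergic and 6 in medium spiny neuron-like nuclei, by 1 in oligodendrocyte-like, 2 each in OPC-like and astrocyte-like and none in vascular-like nuclei. The share of all genes at that unadjusted limit or with DESeq2 is not given, so no excess of members is shown. The lowest adjusted p was that of Ubb in other GABAergic neuron-like nuclei, at 1.18 ± 0.23 (adjusted p = 0.104, edgeR). Ubb had 0.97 ± 0.23 in glutamatergic and 0.88 ± 0.26 in medium spiny neuron-like nuclei (adjusted p = 0.157 and 0.153, edgeR). Hspa4l lay lower, at -0.42 ± 0.09 in other GABAergic and -0.43 ± 0.11 in medium spiny neuron-like nuclei (adjusted p = 0.134 and 0.108, edgeR).

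Moderate and severe infarctions were 1 library each, so their levels were set side by side as CPM ratios of sMCAO ipsi to mMCAO ipsi, with exact 95% intervals that cover counting error only and no test. In oligodendrocyte-like nuclei the severe library stood apart. The members summed to 2119, 2031, 1923, 2046, 2065 and 3449 CPM, so that all libraries but sMCAO ipsi lay within 1923 to 2119 CPM. Of 33 members tested in this class, 18 were highest in sMCAO ipsi of all 6 libraries, against 22.7% of all genes. That count is not particular to this class. It was 19 of 34 in other GABAergic (28.0% of all genes), 19 of 36 in glutamatergic (36.9%) and 12 of 33 in medium spiny neuron-like nuclei (23.8%). In astrocyte-like nuclei it was 9 of 22 (21.9%), in OPC-like 9 of 24 (26.7%), in vascular-like 2 of 12 (18.5%) and in myeloid-like, over 4 libraries, 12 of 28 (32.4%). In oligodendrocyte-like nuclei 10 of the 33 were at least 2-fold higher than in mMCAO ipsi, against 4.73% of all genes. The median ratio was 1.19 for the members and 0.978 for all genes. The study had already named Hspa8, Hsph1, Hsp90aa1 and Dnaja1 as raised in oligodendrocytes of the infarcted hemisphere in these data. They are among the 10, so these counts are a description and no independent support.

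Hsph1 and Hsp90aa1, both known as heat-inducible, were among the 10 members at least 2-fold higher. Hspa8 had 56.0, 46.4, 32.3, 35.6, 47.5 and 174 CPM, and the severe to moderate ratio was 3.67 (2.65 to 5.20). Hsph1 had 128, 85.1, 65.7, 81.7, 106 and 379 CPM, with a ratio of 3.57 (2.87 to 4.48). Hsp90aa1 had 91.3, 69.6, 76.7, 76.9, 103 and 324 CPM, with 3.15 (2.52 to 3.98). In each, sMCAO ipsi was the only library that stood out. Dnajb1, the J-domain partner induced with Hsp70, had 3.65, 0, 7.30, 1.92, 3.39 and 53.5 CPM, with a ratio of 15.8 (5.24 to 77.9). Bag3 had 3.65, 3.87, 4.26, 3.85, 9.04 and 54.7 CPM, with 6.05 (2.95 to 14.4). The small heat shock protein Hspb1 had a ratio of 9.07 (3.74 to 28.6), and Cryab one of 3.54, from 28.3 to 100 CPM. Dnaja1 (3.07), Ubb (3.43), the chaperonin genes Hspe1 (3.12) and Hspd1 (2.13) and Hsp90ab1 (2.15) were also higher in the severe library. Dnajc3, the J-domain partner of Hspa5, was the tenth of the tested members at least 2-fold higher, at 2.04 (1.14 to 3.86). Hspb1, Dnajb1 and Bag3 had too few counts for the edgeR test in this class and are not among the 10. None of the 10 was called against Sham or MCAO contra in this class.

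The higher level in sMCAO ipsi sat in few nuclei. Nuclei with at least 10 member UMIs that made up at least 1% of their UMIs numbered 84 of 1358 (6.19%; exact 95% interval 4.96 to 7.60) oligodendrocyte-like nuclei in sMCAO ipsi, 1 of 1106 in mMCAO ipsi and none in the other 4 libraries. These 84 nuclei held 39.9% of the member UMIs of the class in sMCAO ipsi. Without them the members summed to 2163 CPM in place of 3449, Hspa8 to 64.3, Hsph1 to 96.1, Hsp90aa1 to 125, Dnaja1 to 66.7 and Ubb to 53.5 CPM. Since they were picked by member UMIs, this is a description of where the UMIs lie and no test.

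These nuclei had a median depth of 748 UMIs against 1152 in the other oligodendrocyte-like nuclei of sMCAO ipsi. Both limits used to pick them depend on depth, and their part in this difference was not tested. Of their UMIs, 2.23% were mitochondrial against 0.288%. Over 1% mitochondrial UMIs were found in 68 of the 84 (81.0%) and in 83 of the other 1274 (6.51%). Oligodendrocyte marker genes made up 22408 CPM in them and 16890 CPM in the rest. In nuclei of at most 1% mitochondrial UMIs, an alternative chosen after seeing the data, the ratio was 1.66 (1.15 to 2.42) for Hspa8, 1.83 (1.44 to 2.34) for Hsph1, 1.56 (1.22 to 2.01) for Hsp90aa1, 4.93 (1.52 to 25.4) for Dnajb1 and 3.49 (1.64 to 8.52) for Bag3. For these 5 members the severe library remained higher there, with intervals above 1. Of the 33 members tested 1, Dnajc3 at 2.01 (1.12 to 3.83), was at least 2-fold higher. The interval included 1 for Dnaja1 (0.952 to 1.79), Cryab (0.996 to 2.72) and Hspb1 (0.983 to 8.82). It lay above 1 for Ubb, Hspe1, Hspd1 and Hsp90ab1. In nuclei of at least 1000 UMIs it lay above 1 for Hspa8 (1.08 to 4.12) and Hsp90aa1 (1.14 to 2.83). There it included 1 for Hsph1 (0.982 to 2.15), Dnajb1 (0.612 to 21.3) and Bag3 (0.698 to 7.41). With the stricter gate the intervals of these 5 lay above 1. The share of nuclei over 1% mitochondrial UMIs was 11.1% in sMCAO ipsi and 1.46% to 2.44% in the other libraries of this class, and its part in the higher levels was not tested further.

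**Figure D5:**
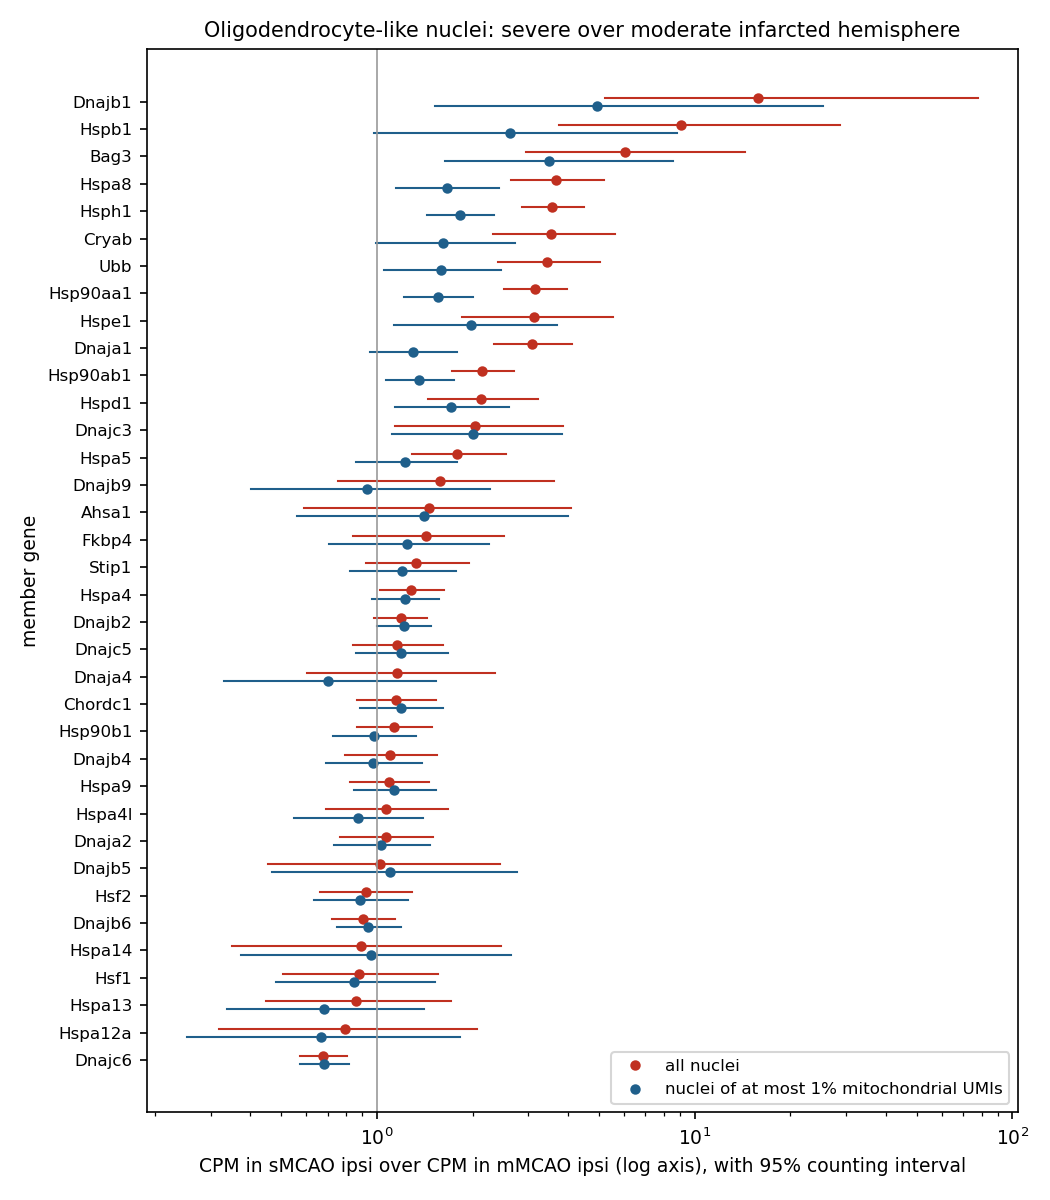
Ratio of sMCAO ipsi to mMCAO ipsi CPM in oligodendrocyte-like nuclei for the 36 members with at least 20 UMIs, on a log axis, with exact 95% intervals for counting error. The 2 series are all nuclei and nuclei of at most 1% mitochondrial UMIs; Dnajb1, Hspb1 and Bag3 have the largest ratios among all nuclei, and most ratios move towards 1 in the second series.

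Fewer members were at least 2-fold higher in each of the other classes. The median ratio of 1.19 in oligodendrocyte-like nuclei lay within the range of the others. Counts of intervals above 1 also depend on the UMIs of a class, and the shares of all genes are not given for them. In sMCAO ipsi the sums held 8469112 UMIs in glutamatergic neuron-like and 1737427 in oligodendrocyte-like nuclei, so these counts cannot rank the classes. An interval above 1 was found for 12 members in oligodendrocyte-like, 14 each in glutamatergic and other GABAergic neuron-like, 13 in myeloid-like, 8 in OPC-like, 4 in astrocyte-like, 1 in vascular-like and 2 in medium spiny neuron-like nuclei, and the median ratio in these other classes was 1.11 to 1.30. At least 2-fold higher in sMCAO ipsi were 4 of 24 members in OPC-like nuclei (2.24% of all genes), 2 of 22 in astrocyte-like (1.84%), 2 of 28 in myeloid-like (4.94%), 3 of 36 in glutamatergic (4.13%), 1 of 34 in other GABAergic (3.56%) and 2 of 33 in medium spiny neuron-like nuclei (3.70%), and 0 of 12 in vascular-like nuclei (4.16%). In OPC-like nuclei these were Hsph1 (2.70), Ubb (2.41), Hspd1 (2.34) and Dnajb2 (2.29). In astrocyte-like nuclei they were Hspb1, at 3.05 (2.14 to 4.46), and Hsp90aa1, at 2.47 (1.5 to 4.27). In myeloid-like nuclei, the microglia and infiltrating immune cells of the lesion, they were Bag3, at 3.39 (1.74 to 7.38), and Hspe1, at 2.72 (1.5 to 5.35). There 26.1% of nuclei in sMCAO ipsi had over 1% mitochondrial UMIs, against 3.33% to 4.19% in the other MCAO libraries.

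Other genes of the 2 pathways were taken from lists of 54 cytosolic chaperone genes, 52 of them found, and 31 endoplasmic reticulum stress genes, 30 of them found. Hspa1a, Hspa1b and Manf had no row of that name. In MCAO ipsi against Sham, 1 of 11 tested genes of the endoplasmic reticulum list rose in astrocyte-like nuclei. It was Canx, the lectin chaperone calnexin, at 83.3, 90.6, 106, 81.5, 159 and 233 CPM, with MCAO ipsi above all others and 1.18 ± 0.34 (adjusted p = 0.0298, edgeR). The median of that list there was 0.82 on the log2 scale, against 0.02 for all genes. Of the cytosolic list, 1 of 21 rose in astrocyte-like nuclei (Pfdn1, a prefoldin subunit, 1.36 ± 0.43, adjusted p = 0.0463, edgeR) and 1 of 49 fell in glutamatergic neuron-like nuclei. The latter was Fkbp5, an Hsp90 co-chaperone of steroid receptors, at 57.0, 57.9, 58.0, 57.3, 35.7 and 25.3 CPM, lowest in both MCAO ipsi libraries, with -0.98 ± 0.15 (adjusted p = 0.00952, edgeR). In the remaining 5 classes no gene of either list was called.

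Against MCAO contra, 3 of 30 tested genes of the cytosolic list rose in OPC-like nuclei, namely Cct4 (1.17 ± 0.30) and Cct3 (1.06 ± 0.32), subunits of the cytosolic chaperonin, and Bag1 (1.61 ± 0.51), an Hsp70 exchange factor (adjusted p = 0.0107, 0.0284 and 0.0400, edgeR). Pdia3, a disulfide isomerase, was the 1 of 11 genes of the endoplasmic reticulum list that rose there, at 1.0 ± 0.30 (adjusted p = 0.0301, edgeR). In astrocyte-like nuclei Pdia6, another disulfide isomerase, and Canx were the 2 of 11 that rose, at 1.62 ± 0.42 and 1.02 ± 0.27 (adjusted p = 0.0218 and 0.0220, edgeR). Fkbp5 was again lower in glutamatergic neuron-like nuclei, at -0.87 ± 0.15 (adjusted p = 0.0165, edgeR), 1 of 49. Of all genes, 14.3% were called in OPC-like, 12.0% in astrocyte-like and 3.35% in glutamatergic neuron-like nuclei. Of the list shares given here, only the 2 of 11 in astrocyte-like nuclei lay above that of all genes. It rests on 2 calls, and Pdia6 had enough counts for the test only through the MCAO ipsi libraries. No response particular to the lists is thus shown.

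Vascular-like nuclei, which held the highest levels, gave no call. Dnaja1 was closest, at 337, 197, 176, 221, 119 and 118 CPM. Both MCAO ipsi libraries were lowest, and the log2 fold change against Sham was -1.23 ± 0.37 (adjusted p = 0.0529, edgeR). The 6 vascular-like sums were small, with 40 to 304 nuclei each, and only 12 members had enough counts for the test.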

How the data were processed

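Nuclei were isolated from frozen brain tissue of rats, and 6 libraries (10x 5′ chemistry) were sequenced. The authors aligned the reads with Cell Ranger 7.0.0 to mRatBN7.2 and deposited filtered matrices of raw UMI counts per gene and nucleus, intronic reads included. Free RNA was not removed by them in these files nor here.

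Nuclei with 250 to 5000 genes, at least 500 UMIs and at most 5% mitochondrial UMIs were kept. A nucleus joined a class when at least 3 of that class's marker genes were detected and their share of its UMIs passed a threshold that was set from the distribution of the marker lists after seeing it, without the members. For glutamatergic and other GABAergic neuron-like nuclei 2 such genes sufficed. Every neuron-like nucleus also needed at least 3 pan-neuron markers. Nuclei with mixed markers stayed unassigned, and no doublet caller was run. Counts were summed per library and class (at least 20 nuclei), and genes were filtered with filterByExpr, normalised by TMM and tested with edgeR 4.0.16, quasi-likelihood, in R 4.3.3. DESeq2 1.42.0 was an alternative. The fit held all 3 groups. Per-library values are given for members called in MCAO ipsi against Sham, with up to 6 per class, and up to 3 pathway genes per class; others named were chosen after their values were seen. Shares of nuclei with a UMI were computed after thinning to 1000 UMIs with exact 95% binomial intervals, and severe against moderate with exact conditional binomial intervals, both for counting error only; a count of 0 was bounded by 3 counts over the group. The exact permutation test of 2 against 2 libraries cannot go below 0.333 and was not used.

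The members and lists were chosen with earlier results of these data known. The result of 1 gene of the pathway lists is not reported here. The study's design text pairs the hemispheres of a severity as the same rats, so the rat pool was an alternative block. Other alternatives were the size factors, no filter on low counts, only the compared groups, a stricter gate, nuclei low in neuron markers, nuclei of at least 1000 UMIs, nuclei of at most 1% mitochondrial UMIs (chosen after seeing the data) and leaving out each library. The test of MCAO ipsi against Sham was checked on simulated counts. Simulated 2-fold changes were called in 15.0% to 23.0% of cases in oligodendrocyte-like, OPC-like, astrocyte-like and vascular-like sums. In the neuron-like classes 64.0% to 74.0% were called. A member not called in the former classes is thus not shown to be unchanged. Promoters came from RefSeq (GRCr8), and no coordinate of mRatBN7.2 was used. Python 3.11.15, numpy 2.4.6, scipy 1.17.1, pandas 2.3.3 and matplotlib 3.10.9 were used.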

Additional observations from a re-analysis of the deposited data

Results flagged for a closer look

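A change in MCAO ipsi against Sham that differed from that in glutamatergic neuron-like nuclei, by a test of the difference itself, was found for 3 members. The log2 difference was 3.42 for Hspa5 in astrocyte-like, -1.97 for Dnajc6 in astrocyte-like and -1.38 for Dnajc6 in OPC-like nuclei. None of the 3 was called with the stricter gate.

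Nuclei placed in no class also carried the members. In the unassigned nuclei the 37 members summed to 1881 CPM in mMCAO ipsi and 3220 CPM in sMCAO ipsi, above the 1628 and 1684 CPM of Sham L and Sham R. In sMCAO ipsi, 100 of 1297 unassigned nuclei (7.71%; exact 95% interval 6.32 to 9.30) had at least 10 member UMIs that made up at least 1% of their UMIs, and without them the sum was 2319 CPM.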

How the results depend on the processing

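Over the 25 named calls and all alternatives that gave a value (333 in all), 201 kept their direction and their side of the threshold, 132 were no longer called and none changed sign. The causes of the changes in the counts were not tested. The counts below are not set beside the share of all genes called under each alternative, so they show no change particular to the members. For MCAO ipsi against Sham, members called numbered 1, 1, 4, 0, 4, 1 and 3 in, by order, oligodendrocyte-like, OPC-like, astrocyte-like and vascular-like nuclei, then glutamatergic, then medium spiny, then the other GABAergic neuron-like nuclei. In that order they were 12, 2, 5, 0, 8, 2 and 4 without a filter on low counts; 1, 0, 1, 0, 4, 1 and 2 with DESeq2; 0, 1, 2, 0, 3, 1 and 1 with only the 2 groups; 0, 0, 0, 1, 1, 0 and 1 with the stricter gate; 0, 1, 0, 0, 4, 1 and 3 in nuclei of at least 1000 UMIs; and 1, 1, 4, 1, 4, 1 and 1 in nuclei of at most 1% mitochondrial UMIs. In nuclei low in neuron markers the count was 0 in the 3 glial classes fitted. Of nuclei of at least 1000 UMIs, Sham R had 11 astrocyte-like and 12 vascular-like ones, too few to enter those fits. With the stricter gate sMCAO ipsi had 19 medium spiny neuron-like nuclei, also too few. The counts of these fits rest on a group of 1 library and cannot show whether the calls hold. Leaving out 1 library at a time gave 0 to 14, 0 to 3, 0 to 7, 0 to 3, 0 to 9, 0 to 2 and 0 to 7 calls in the same order. The highest count in each of the 7 classes was that without mMCAO ipsi.

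For MCAO ipsi against MCAO contra, the 11 calls became 3 with DESeq2, 28 without a filter, 6 with only the 2 groups, 1 with the stricter gate, 2 in nuclei low in neuron markers, 7 in nuclei of at least 1000 UMIs and 0 to 45 with 1 library left out. With the replicate block for the pairing of hemispheres of the same rats it was 11, and each of the 11 was called again. For MCAO contra against Sham, the count of 0 became 2 with DESeq2, 3 without a filter, 5 with only the 2 groups and 0 to 5 with 1 library left out. The 3 changes that differed from glutamatergic neuron-like nuclei became 7 without a filter, 5 with size factors of relative log expression and 0 with the stricter gate. The 10 oligodendrocyte-like members at least 2-fold higher in the severe library became 1 in nuclei of at most 1% mitochondrial UMIs. Depth limits the Sham sums of astrocyte-like and OPC-like nuclei, where several members rest on 0 to 2 UMIs.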

Other observations

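The severe infarct library also held chaperone transcripts outside the classes compared. Nuclei that carried neuron markers but no marker set of a neuron class had member sums of 1603, 1577, 1625, 1697, 1665 and 1817 CPM in Sham L, Sham R, mMCAO contra, sMCAO contra, mMCAO ipsi and sMCAO ipsi, so that sMCAO ipsi was highest by a small margin. Of oligodendrocyte-like nuclei thinned to 1000 UMIs, 19 of 837 (2.27%) in sMCAO ipsi had at least 10 member UMIs. In mMCAO ipsi it was 1 of 176 (0.568%), and in each other library none of 49 to 395. Nuclei of fewer UMIs, 521 in sMCAO ipsi and 930 in mMCAO ipsi, were left out. Intervals are not given, so no difference between libraries is shown. Thinned vascular-like nuclei reached this limit in 3.55% for sMCAO ipsi, 4.55% for mMCAO ipsi and 6.52% for mMCAO contra. These shares rest on 2 to 6 nuclei, and Sham L, Sham R and sMCAO contra had none. Nuclei at this limit thus also occurred outside oligodendrocyte-like nuclei and outside sMCAO ipsi, and whether their share differs was not tested.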
